A study of Mus musculus with 2 samples.

Results

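Fibroblast growth factor (FGF) signalling was followed through 10 genes in dissociated cells of the newborn mouse tooth germ. They are the ligand genes Fgf3, Fgf4, Fgf9, Fgf10 and Fgf20, the receptor genes Fgfr1 and Fgfr2, and the pathway targets Etv4, Etv5 and Spry4. The genes were taken as the rows that carry these symbols, 10 of the 31253 features, in both count tables. Cells of the mandibular first molar germ of newborn C57black/B6 mice were captured on BD Rhapsody, a microwell system for single-cell RNA sequencing, and 1 library was made per genotype. The control library came from Edar fl/fl mice, whose gene for the ectodysplasin receptor is flanked by loxP sites and which lack Cre. The deletion library came from K14cre;Edar fl/fl mice, which have the same floxed gene and a Cre under the keratin 14 promoter, a promoter of epithelial cells. Both groups thus carry the floxed allele, and how many pups of which sex were used is not given in the sources used here. A single library per genotype allows no test across animals. No p-value is given, and every interval is at 95% and covers counting error only.

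FGF ligands bind receptor tyrosine kinases together with heparan sulfate and switch on the MAP kinase cascade, which induces the ETS transcription factors Etv4 and Etv5 and the feedback inhibitor Spry4. In the tooth germ signals pass in both directions between epithelium and mesenchyme. Fgf4, Fgf9 and Fgf20 are known as signals of the epithelium and its enamel knot, the signalling centre at the cusp tips, while Fgf3 and Fgf10 are signals of the dental mesenchyme that maintain growth of the epithelium. Fgf20 is known as a target of ectodysplasin signalling in the embryonic enamel knot. Each receptor gene gives an epithelial and a mesenchymal splice form with different ligand preference, and reads at the 3′ end of transcripts do not tell these forms apart.

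The ligand genes include a pair of chromosomal neighbours that were found in different cells. In the GENCODE M21 annotation of mm10, Fgf3 (ENSMUSG00000031074) lies on the plus strand of chromosome 7 from 144838083 to 144844436. Fgf4 (ENSMUSG00000050917) follows on the same strand from 144847367 to 144865243, which leaves 2931 bases between the annotated genes. Promoter sequence was held in the RefSeq table (GRCm38.p6) for 6 of the 10 genes and is shown for the 4 ligand genes whose cell classes separated most clearly, as the 250 bases before the start on the gene's strand with CG dinucleotides in capitals. Fgf3 at chr7:144838362-144838611 and Fgf10 at chr13:118714449-118714698 belong to the ligands detected in mesenchyme, Fgf4 at chr7:144861136-144861385 and Fgf9 at chr14:58072436-58072685 to those of epithelium, all on the plus strand. The RefSeq starts lie inside the GENCODE gene bounds, which begin further upstream in each case.
Fgf3: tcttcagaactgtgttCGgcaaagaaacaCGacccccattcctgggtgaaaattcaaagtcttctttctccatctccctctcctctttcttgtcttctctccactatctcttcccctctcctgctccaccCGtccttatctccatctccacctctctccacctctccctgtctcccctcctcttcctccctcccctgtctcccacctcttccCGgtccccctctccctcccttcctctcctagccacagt
Fgf10: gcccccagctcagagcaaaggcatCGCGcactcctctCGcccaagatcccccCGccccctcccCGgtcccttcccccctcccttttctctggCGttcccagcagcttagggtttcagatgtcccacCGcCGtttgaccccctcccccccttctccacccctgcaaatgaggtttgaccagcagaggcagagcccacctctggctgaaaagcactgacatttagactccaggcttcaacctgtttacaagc
Fgf4: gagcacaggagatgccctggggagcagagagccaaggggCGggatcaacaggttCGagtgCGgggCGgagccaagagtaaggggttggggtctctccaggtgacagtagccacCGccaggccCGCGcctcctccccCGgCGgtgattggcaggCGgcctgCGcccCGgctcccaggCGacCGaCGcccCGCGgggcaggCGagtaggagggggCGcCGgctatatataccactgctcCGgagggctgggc
Fgf9: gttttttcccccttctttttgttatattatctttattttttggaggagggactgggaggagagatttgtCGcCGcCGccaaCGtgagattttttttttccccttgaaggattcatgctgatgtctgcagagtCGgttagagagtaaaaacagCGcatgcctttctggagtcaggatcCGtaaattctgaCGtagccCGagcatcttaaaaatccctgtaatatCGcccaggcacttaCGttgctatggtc
Fgf3 had 4 CG dinucleotides, Fgf10 had 8, Fgf9 had 11 and Fgf4 had 21 in these 250 bases, against a median of 6 over the 32851 promoters of the table. No match was found in them, on either strand, to CTTTGAT, a TCF/LEF motif held by 3.21% of all promoters of this length, to the RUNX motif TGTGGT (14%), to the ETS motif CCGGAAGT (2.88%) or to TATAAA (12.4%). That says only that these letters are not in these windows.

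The control library held 73375441 unique molecular identifiers (UMIs) and the deletion library 62158879, and 13255 and 15244 cells were kept, with medians of 4444 and 3329 UMIs. Clustering left out the 10 genes and 53 other FGF pathway genes, so these genes did not shape the groups of cells they are described in. Epithelium-like cells numbered 2271 and 1887, or 17.1% and 12.4% of kept cells, and mesenchyme-like cells 7698 and 10357, or 58.1% and 67.9%. The 10 epithelial markers summed to 4344 and 3819 CPM, the UMIs of a gene scaled to a common class total, in epithelium-like cells and to 29.6 and 44.3 CPM in mesenchyme-like cells. Edar itself stood at 34.6 CPM in control and 21.1 CPM in deletion epithelium, and 3′ reads may lie outside the deleted part of the gene. Their position, and the share of epithelial cells in which the gene was deleted, were not tested. The libraries differed in make-up: 17.0% of control and 46.7% of deletion epithelial cells had Xist but no Y-linked UMIs, and 38.8% and 15.2% the reverse. The class names below stand for cells like that type, as named from markers.

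Fgf3 was a mesenchymal ligand in both libraries. It had 450 UMIs in control mesenchyme, 10.6 CPM (interval 9.62 to 11.6), and 456 UMIs in deletion mesenchyme, 11.5 CPM (10.5 to 12.6). Epithelium held 4 and 3 UMIs, endothelium 0 and 1, and macrophages 0 in both, which allows up to 0.54 and 0.82 CPM there. The control mesenchyme level was 27.5 times that of epithelium (10.7 to 101). Cells with an Fgf3 UMI made up 5.08% and 4.13% of mesenchyme, whose median depths were 4624.5 and 3317 UMIs. After each cell was thinned to 1900 UMIs the shares were 1.71% and 2.15%. Macrophages were deeper, with medians of 7889 and 5400 UMIs, and none of them had an Fgf3 UMI.

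Within mesenchyme Fgf3 was concentrated in 2 unnamed sub-clusters. The first, number 4, was led by Plac8, Smpd3 and Panx3, and Fgf3 stood there at 29.2 and 33.2 CPM. The second, number 5, was led by the proliferation genes Pclaf, Ube2c and Mki67, and Fgf3 stood there at 28.8 and 31.9 CPM. These levels did not differ from each other beyond counting error, with ratios of 1.01 (0.80 to 1.29) and 1.04 (0.81 to 1.33). Of the mesenchymal Fgf3 UMIs, 29.6% and 25.4% lay in the Plac8 sub-cluster and 34.2% in the proliferating cells of each library. Odontoblasts, the dentin-forming cells, had 5.43 and 5.70 CPM, so the Plac8 sub-cluster was 5.39 times (4.02 to 7.27) and 5.82 times (3.78 to 9.29) above them. Fgf3 was nearly undetected in the largest dental follicle sub-cluster, number 9, with 1 and 2 UMIs, and in the perivascular or fibroblast cells, with 1 and 0.

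Fgf10 (ENSMUSG00000021732), the other mesenchymal ligand, was spread more widely. Mesenchyme had 22.2 CPM (20.8 to 23.7) and 22.1 CPM (20.6 to 23.6), and epithelium 0.96 and 1.46 CPM (10 UMIs each). Mesenchyme was 23.1 times (12.5 to 48.4) and 15.2 times (8.20 to 31.7) above epithelium. An unnamed cluster of 783 and 643 cells led by Sgms2, Ifitm5 and Col24a1 stood higher still, at 52.1 and 48.9 CPM, which was 2.34 times (2.05 to 2.68) and 2.22 times (1.88 to 2.60) the mesenchyme.

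The highest Fgf10 level was again in the Plac8 sub-cluster, at 74.5 CPM (66.8 to 82.9) and 70.6 CPM (62.1 to 80.0). The proliferating sub-cluster came next with 43.2 and 37.1 CPM, and the Plac8 sub-cluster exceeded it 1.72 times (1.45 to 2.05) and 1.91 times (1.57 to 2.32). Unlike Fgf3, Fgf10 was present in the perivascular or fibroblast cells, at 30.1 and 27.1 CPM. Odontoblasts were low for both ligands, with 5.87 and 7.89 CPM of Fgf10. In the dental papilla sub-cluster led by Grik1 and Rspo4, number 1, Fgf10 stood at 21.8 CPM (control) and 11.5 CPM (deletion), a ratio between 0.36 and 0.77. In the follicle sub-cluster led by Pappa2 and Cyp26b1, number 8, the order was opposite, with 16.2 and 23.8 CPM (ratio between 1.01 and 2.18).

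Fgf4 was the ligand with the fewest UMIs, and within epithelium nearly all of them lay in enamel knot cells. All kept cells together held 25 and 19 Fgf4 UMIs, of which epithelium held 20 and 12 and mesenchyme 4 and 5. Endothelium held 1 and 0, and the Sgms2 cluster 0 and 2. The 154 control and 111 deletion enamel knot cells held 17 of those 20 and all 12. The other 3 control UMIs were in sub-cluster 2, named inner enamel epithelium, the precursors of ameloblasts. Its leading genes were of cell division (Ube2c, Cenpa and Cenpf), and none was a marker of that name. Its score for the name was 0.831, while ameloblasts scored 0.847 and the unnamed sub-cluster 0 scored 0.839 on the same list. The name thus does not set it apart from those cells. Enamel knot cells therefore stood at 29.2 CPM (17.0 to 46.8) and 33.6 CPM (17.4 to 58.7). The ratio of the libraries lay between 0.50 and 2.56, so a difference smaller than about that range was not detectable at this depth. Enamel knot cells were 6.78% (5.78 to 7.89%) of control epithelium and 5.88% (4.86 to 7.04%) of deletion epithelium. Their name rests on the leading genes Wnt10b, Edar and Lef1, so the targeted gene itself took part in the naming. Edar stood there at 239 CPM in the control and 160 CPM with the deletion. Whether these newborn cells act as a signalling centre was not tested.

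Fgf9 (ENSMUSG00000021974) marked a broader epithelial domain with its peak in the same enamel knot cells. Epithelium had 62.8 CPM (58.1 to 67.8) and 67.8 CPM (61.7 to 74.2), against 0.66 and 0.61 CPM in mesenchyme, or 95.4 times (65.4 to 145) and 112 times (74.2 to 176) more. Of all Fgf9 UMIs, 94.4% and 92.1% lay in epithelium. A UMI of Fgf9 was found in 19.3% and 16.9% of epithelial cells and, after thinning, in 11.4% and 11.3%, against 0.16% and 0.34% of thinned macrophages.

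Over epithelial sub-clusters Fgf9 formed a gradient. Enamel knot cells had 283 CPM (242 to 330) and 286 CPM (233 to 347), and the unnamed sub-cluster 0, led by Ecel1, Aldh1a7 and Rprm, had 109 and 115 CPM. The step between them was 2.61-fold (2.12 to 3.21) and 2.49-fold (1.92 to 3.23). Inner enamel epithelium followed with 67.5 and 95.8 CPM, below the Ecel1 sub-cluster in the control (1.61-fold, 1.29 to 2.02) but not beyond counting error in the deletion library (1.20-fold, 0.93 to 1.54). Ameloblasts, the enamel-forming cells, had 37.4 and 32.5 CPM. Stratum intermedium held 4 and 3 UMIs, and oral keratinocytes 0 in both libraries, which allows up to 4.10 and 4.69 CPM.

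For Fgf20 no peak in enamel knot cells was seen, from few UMIs. Its epithelial level was 8.56 CPM (6.87 to 10.5, 89 UMIs) and 6.70 CPM (4.91 to 8.94, 46 UMIs), and mesenchyme had 2.70 and 3.21 CPM and endothelium 4.74 and 3.05 CPM. Epithelium stood 3.17 times (2.37 to 4.21) and 2.09 times (1.46 to 2.95) above mesenchyme. Enamel knot cells, the known embryonic source, held only 3 UMIs in each library, 5.15 and 8.40 CPM. Their intervals overlapped those of every other epithelial sub-cluster in both libraries, and so few UMIs cannot show whether they differ. In mesenchyme, dental papilla cells held 41 and 53 UMIs, 7.75 CPM (5.56 to 10.5) and 5.92 CPM (4.43 to 7.74), while odontoblasts held 24 and 3. A UMI of Fgf20 was found in 3.83% and 2.33% of epithelial cells and in 1.87% and 1.12% of endothelial cells, a class that should lack it. The median epithelial cell had 3991 and 3006 UMIs and the median endothelial cell 3026 and 2961. In thinned cells the shares were 1.79% and 1.11% against 1.23% and 0.13%. The annotated Fgf20 gene (ENSMUSG00000031603, chromosome 8 from 40279166 to 40308331, minus strand) overlaps Micu3 on the other strand. Whether the counting used strand is not given in the sources used here, and Fgf9, Fgf10, Fgfr1 and Spry4 likewise overlap genes annotated on the other strand. Epithelium had 17.8 and 22.0 CPM of Micu3, and mesenchyme 24.7 and 29.1 CPM, and its part in the Fgf20 counts was not tested.

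**Figure D1:**
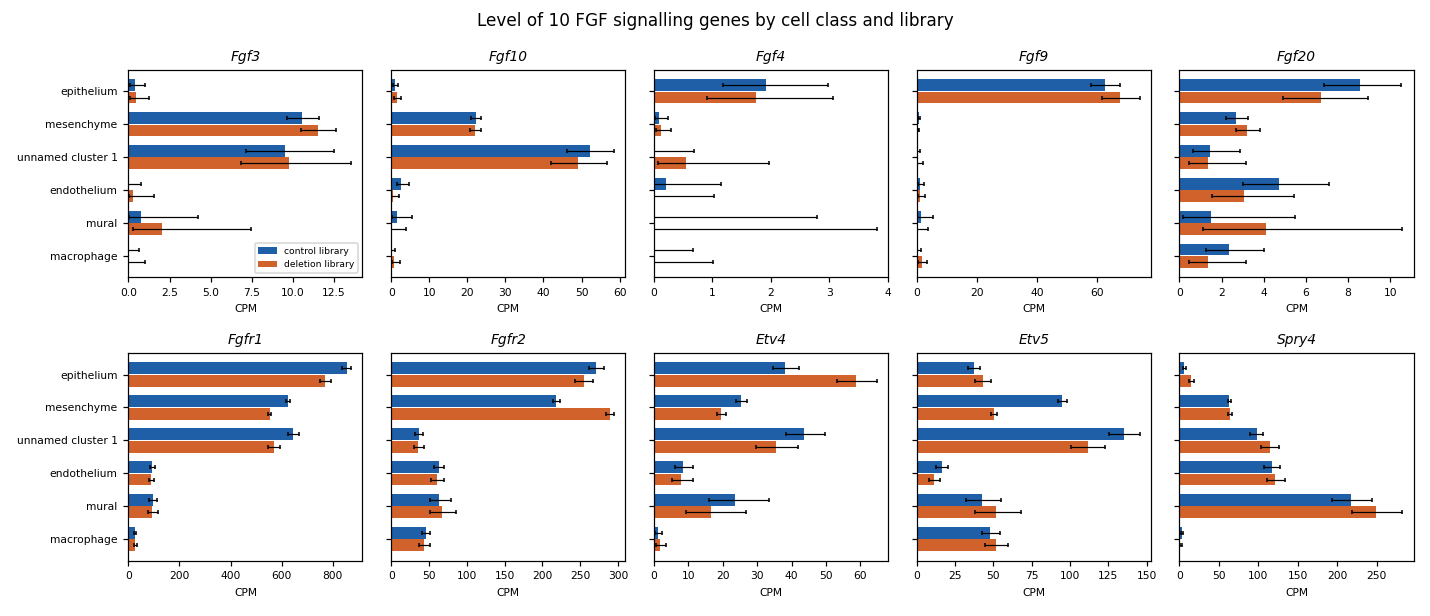
Level of each gene in CPM (horizontal axis, linear, scaled per panel) in 6 groups of cells, with blue bars for the control library, orange bars for the deletion library and black lines for exact 95% Poisson intervals. Fgf3 and Fgf10 stand in mesenchyme and the unnamed cluster, Fgf9 and Fgf4 in epithelium (62.8 and 67.8 CPM for Fgf9), and Spry4 is highest in mural cells (217 and 249 CPM).

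The receptor Fgfr1 (ENSMUSG00000031565) was found in both tissue layers. Epithelium had 855 CPM (837 to 873) and 771 CPM (750 to 792), and mesenchyme 626 and 552 CPM. Epithelium exceeded mesenchyme 1.37 times (1.33 to 1.399) and 1.395 times (1.35 to 1.44), while mesenchyme exceeded endothelium 6.70 times (6.11 to 7.37) and 6.25 times (5.59 to 6.997). Macrophages were lowest of the larger classes, with 25.3 and 26.4 CPM.

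Within epithelium the Fgfr1 peak was not in the enamel knot cells that led for Fgf9. The Ecel1 sub-cluster had 1396 and 1350.1 CPM and ameloblasts 1273 and 1225 CPM, while enamel knot cells had 622 and 705 CPM and oral keratinocytes 212 and 209 CPM. Ameloblasts stood 6.01 times (5.10 to 7.12) and 5.85 times (4.87 to 7.07) above oral keratinocytes. In mesenchyme the spread was small, from 400.1 to 956 CPM over the 12 control sub-clusters, and the highest was the unnamed sub-cluster 3, led by Vdr, Slc20a2 and Hey1 (956 and 913 CPM).

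Fgfr2 had a different map. Epithelium had 271 and 255 CPM and mesenchyme 218 and 289 CPM, so epithelium was above mesenchyme in the control (1.24 times, 1.19 to 1.30) and below it with the deletion (0.88 times, 0.836 to 0.925). Oral keratinocytes were the highest epithelial cells, with 590.2 and 485 CPM against 232 and 231 CPM in ameloblasts, a ratio of 2.54 (2.21 to 2.93) and 2.10 (1.73 to 2.56). Among the named epithelial cells, oral keratinocytes were thus the highest for Fgfr2 and the lowest for Fgfr1. The annotated Fgfr2 gene (ENSMUSG00000030849) spans 2960900 bases of chromosome 7 and overlaps 36 annotated genes on its own strand, and the gene models used in counting are not known, so its counts may hold reads of others.

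The contrast was sharper in mesenchyme. The largest dental follicle sub-cluster had 947 CPM (919 to 976) and 871 CPM (846 to 897), and odontoblasts had 20.7 and 28.3 CPM. That is a ratio of 45.7 (40.5 to 51.8) for the control and 30.8 (25.9 to 37.0) for the deletion. The unnamed sub-cluster 11, led by Mmp13 and Spp1, had 808 and 676 CPM, and the 2 sub-clusters rich in Fgf3 had 77.4 to 107 CPM over both libraries. The 3 sub-clusters highest in Fgfr2 (numbers 9, 11 and 6) in turn held 1, 1 and 1 Fgf3 UMIs in the control and 2, 0 and 0 with the deletion.

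**Figure D2:**
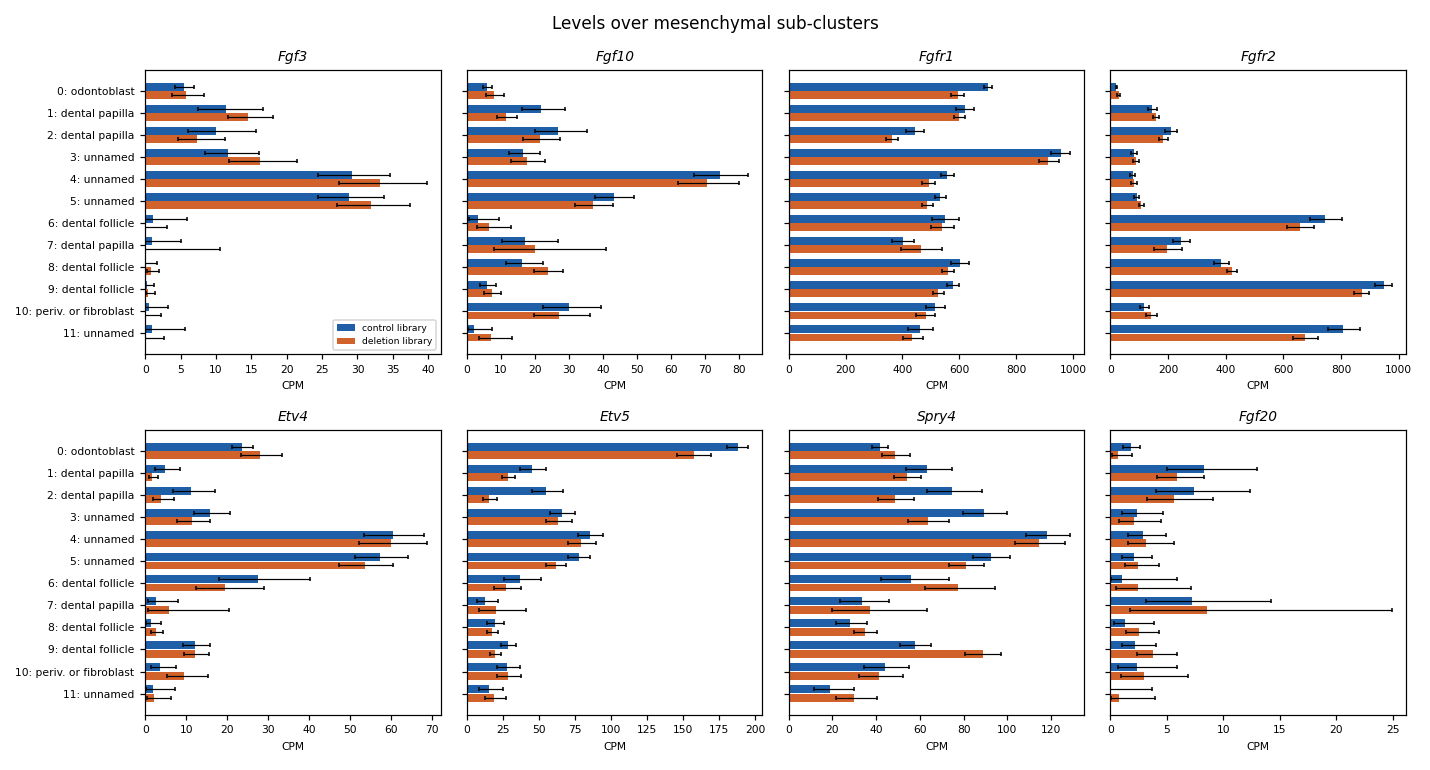
Levels in CPM (linear axis, scaled per panel) over the 12 mesenchymal sub-clusters, labelled by number and name, with blue bars for the control library, orange bars for the deletion library and exact 95% Poisson intervals. Fgf3 and Fgf10 are highest in sub-clusters 4 and 5, Fgfr2 in follicle sub-cluster 9 (947 and 871 CPM), and Etv5 in odontoblasts (188 and 157 CPM).

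Etv4 (ENSMUSG00000017724), a transcription factor induced by FGF signalling, was highest in an unnamed epithelial sub-cluster. This sub-cluster, number 5, was led by Aldh1a3, Ung, Nnat and Sfrp5 and made up 8.94% of control and 13.9% of deletion epithelium. Etv4 stood there at 173 CPM (148 to 200) and 193 CPM (166 to 224). It was also among the leading genes there by fold, although it took no part in the clustering. Inner enamel epithelium had 58.4 and 110 CPM, enamel knot cells 37.8 and 50.4 CPM, and ameloblasts 4.44 and 9.91 CPM (7 UMIs each). The step from ameloblasts to the Aldh1a3 sub-cluster was 38.9-fold (18.5 to 98.2) and 19.5-fold (9.27 to 49.2).

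In mesenchyme Etv4 was highest in the 2 sub-clusters where Fgf3 was highest, with 60.4 and 60.0 CPM in the Plac8 sub-cluster and 57.4 and 53.6 CPM in the proliferating cells. The perivascular or fibroblast cells had 3.47 and 9.44 CPM, and the Mmp13 sub-cluster 2 and 3 UMIs. Macrophages held 6 UMIs in each library, 1.09 and 1.63 CPM.

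Etv5 (ENSMUSG00000013089), its close relative, had the same leading epithelial sub-cluster but another mesenchymal one. The Aldh1a3 sub-cluster had 126 CPM (105 to 150) and 115 CPM (94.3 to 140), which was 9.03 times (5.72 to 14.9) and 7.41 times (3.97 to 15.3) the level of ameloblasts. Inner enamel epithelium followed at 58.9 and 84.8 CPM. In mesenchyme, odontoblasts led with 188 CPM (180 to 195) and 157 CPM (146 to 169), 2.20 times (1.98 to 2.45) and 1.98 times (1.72 to 2.29) the Plac8 sub-cluster. Etv5 was also found in macrophages, at 47.96 and 51.97 CPM, where Etv4 was near 0.

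Spry4 (ENSMUSG00000024427), a feedback inhibitor of receptor tyrosine kinase signalling, was chiefly a vascular and mesenchymal transcript. Mural cells, which wrap small vessels, had 217 CPM (193 to 244) and 249 CPM (218 to 282), endothelium 117 and 121 CPM, mesenchyme 63.3 and 63.6 CPM, and epithelium 6.06 and 14.9 CPM. Each step in this order was beyond counting error, with mural cells at 1.86 and 2.05 times the endothelium and endothelium at 1.85 and 1.91 times the mesenchyme. Outside this order, the Sgms2 cluster lay close to endothelium at 97.8 and 114 CPM, and glia had 60.3 and 88.2 CPM from 7 and 33 UMIs. In mesenchyme the Plac8 sub-cluster led again, with 118 and 114 CPM against 41.6 and 48.6 CPM in odontoblasts. The Plac8 sub-cluster was the highest of the 12 for Fgf10 and Spry4 in both libraries and held the 2 highest levels of Fgf3 and Etv4 together with the proliferating cells.

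**Figure D3:**
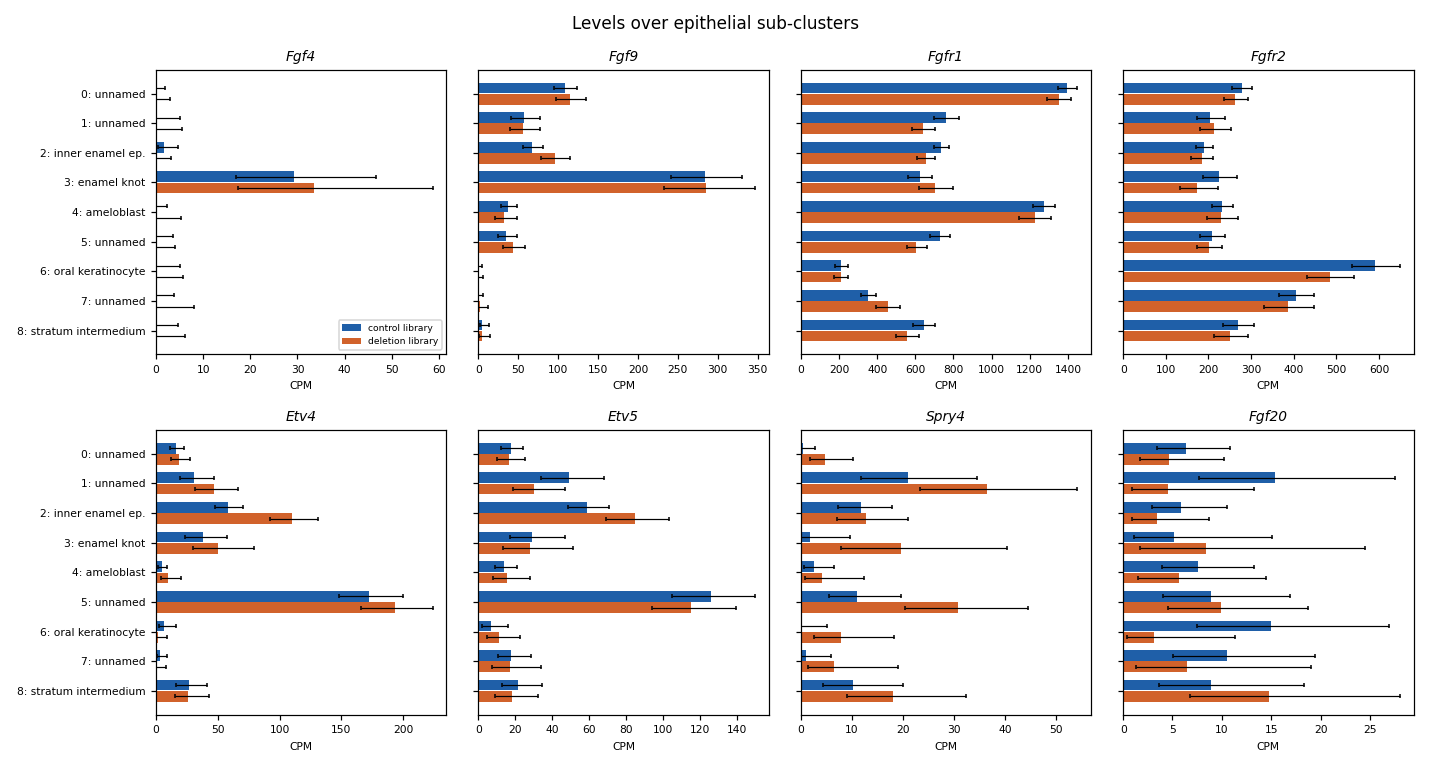
Levels in CPM (linear axis, scaled per panel) over 9 of the 10 epithelial sub-clusters, labelled by number and name, with blue bars for the control library, orange bars for the deletion library and exact 95% Poisson intervals. The tenth, of 84 and 41 shallow cells, is not drawn. Fgf4 and Fgf9 peak in enamel knot cells, Fgfr1 in sub-clusters 0 and 4, Fgfr2 in oral keratinocytes, and Etv4 and Etv5 in sub-cluster 5 (173 and 193 CPM for Etv4).

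The libraries were then compared within classes by a rule of size. A gene was called where it had at least 5 CPM in a library, a 2-fold difference of (CPM + 5) and an interval of the count ratio beyond 1. Each log2 ratio sets deletion over control after 5 CPM is added to both levels, so the ratios of weak genes are understated. Of the 10 genes, 7 reached 5 CPM in epithelium and 0 of them were called, where the rule called 0.196% of 10701 genes. In mesenchyme 7 reached it and 0 were called, against 0.505% of 10698 genes, and in endothelium 5 reached it and 0 were called, against 0.189% of 10071 genes. No test exists for this design, so these counts do not show that the genes were alike. The median log2 ratio of the 7 genes was 0.10 in epithelium and -0.01 in mesenchyme, beside -0.04 and 0.09 over all genes.

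Applied within sub-clusters, a step added after the class values were known, the rule called members 5 times. Over the 10 epithelial sub-clusters 65 pairs of gene and sub-cluster reached 5 CPM and 4 were called, and over the 12 mesenchymal ones 78 reached it and 1 was called. Spry4 was higher with the deletion in enamel knot cells (1 and 7 UMIs, count ratio between 1.47 and 514), where 3.43% of all genes were called. It was also higher in the Aldh1a3 sub-cluster (11 and 28 UMIs, 1.36 to 6.27), where 2.54% were, and in oral keratinocytes (0 and 5 UMIs), where 3.54% were. Fgf20 was lower in oral keratinocytes (11 and 2 UMIs, 0.0224 to 0.953). Etv5 was lower in papilla sub-cluster 2, led by Gabrg3 and Lypd1, with 104 and 44 UMIs, where 0.751% were called. The 4 epithelial calls rest on few UMIs.

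The ligands differed by less in whole classes than in some sub-clusters. In epithelium the log2 ratio was 0.10 for Fgf9 (ratio between 0.96 and 1.22, and -0.03 in thinned cells) and -0.21 for Fgf20 (0.54 to 1.13), and in mesenchyme 0.09 for Fgf3 (0.95 to 1.24) and -0.01 for Fgf10 (0.91 to 1.09). In endothelium the rule called Fgf20 in thinned cells only, along with 0.806% of all genes there. Single groups of cells differed more, with the Fgf10 gap in papilla sub-cluster 1 given above and an Fgf9 level in inner enamel epithelium of 67.5 and 95.8 CPM (ratio between 1.09 and 1.84). The receptors differed little in epithelium, with -0.15 for Fgfr1 (0.87 to 0.93) and -0.09 for Fgfr2 (0.88 to 1.00). In mesenchyme Fgfr1 had -0.18 (0.87 to 0.90). Intervals that exclude 1 are common here, since they lay above 1 for 8.61% and below 1 for 17.7% of genes in epithelium, and for 46.8% and 19.6% in mesenchyme.

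Fgfr2 in mesenchyme had a log2 ratio of 0.40 (ratio between 1.29 and 1.36). The value was -0.04 when each sub-cluster was weighted by its share of the UMIs of both libraries pooled, the same weight in each. Dental follicle cells, where Fgfr2 is highest, made up 23.6% of control and 32.2% of deletion mesenchyme. Within the follicle the level was 758 and 649 CPM (ratio between 0.83 and 0.89).

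Etv5 had the largest mesenchymal difference of the 10 genes. Its level was 95.0002 CPM (92.1 to 98.0, 4042 UMIs) in the control and 50.3 CPM (48.2 to 52.6, 1992 UMIs) in the deletion library. That is a log2 ratio of -0.85 and a ratio between 0.50 and 0.56. The mix of cells moved with it: odontoblasts, its highest source, were 19.5% of control and 6.45% of deletion mesenchyme. With the same pooled sub-cluster weights in both libraries the log2 ratio was -0.27. Within odontoblasts the level was 188 and 157 CPM (ratio between 0.77 and 0.91), in the papilla sub-cluster 1 it was 45.0 and 28.5 CPM (0.49 to 0.82), and in the papilla sub-cluster 2, led by Gabrg3 and Lypd1, 54.8 and 15.4 CPM (0.19 to 0.40). The log2 ratio was -1.03 in mesenchymal cells with Y-linked UMIs only, where the rule called Etv5 and 1.64% of all genes, and -0.69 in those with Xist only.

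Etv4 in mesenchyme had a log2 ratio of -0.31 (ratio between 0.70 and 0.85). Its direction differed between subsets of cells split by sex-linked UMIs, in which pups and mix of cells were not matched. It was -0.72 in cells with Y-linked UMIs only and 0.15 in cells with Xist only. Spry4 in mesenchyme was level at 0.01, with -0.17 and 0.27 in the same split, and in the largest follicle sub-cluster it stood at 57.6 and 88.6 CPM (ratio between 1.32 and 1.80). TMM scaling shifted the median of all mesenchymal genes from 0.09 to -0.02 and put Spry4 at -0.11 and Fgf3 at -0.000979.

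In epithelium the 3 targets all had log2 ratios above 0. Etv4 stood at 38.2 CPM (34.5 to 42.1, 397 UMIs) and 58.7 CPM (53.1 to 64.8, 403 UMIs), a log2 ratio of 0.56 and a ratio between 1.34 and 1.77. Its share of thinned cells was 5.86% and 9.56%, against 0.48% and 0.17% of macrophages. The value was 0.38 with the same sub-cluster weights in both libraries, 0.50 in cells with Y-linked UMIs only and 0.80 in those with Xist only. The sub-cluster named inner enamel epithelium, led by cell-division genes, gave the widest gap of the named cells. Its levels were 58.4 and 110 CPM (ratio between 1.45 and 2.46), while the Aldh1a3 sub-cluster gave 173 and 193 CPM. Etv5 had a log2 ratio of 0.18 (ratio between 0.98 and 1.34), with -0.19 in thinned cells, -0.21 in cells with Y-linked UMIs only and 0.39 in those with Xist only.

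Spry4 had the largest epithelial ratio from few counts, 63 UMIs (6.06 CPM, 4.66 to 7.75) and 102 UMIs (14.9 CPM, 12.1 to 18.0). The log2 ratio was 0.85, with a count ratio between 1.77 and 3.41. Thinned cells gave 0.50, cells with Y-linked UMIs only 0.63, and cells with Xist only 1.25, where the rule called Spry4 and 0.779% of all genes. A pseudocount of 1 CPM also called Spry4, and 0.495% of all genes. The Aldh1a3 sub-cluster held 11 and 28 UMIs, enamel knot cells 1 and 7, and the sub-cluster led by the mesenchymal genes Col3a1, Lum and Postn 15 and 24. That last sub-cluster, number 1, was 6.25% of control and 9.12% of deletion epithelium, and the log2 ratio was 0.82 without it. The summed level of the 10 mesenchymal markers in epithelium was 2277 CPM (control) and 2346 CPM (deletion), with none at 0 and 8 of 10 higher in the latter.

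Immediate early genes, which respond within minutes to growth factors and to tissue digestion, were also higher in the deletion library. All 8 on the list, among them Fos and Egr1, had log2 ratios above 0 in epithelium, mesenchyme and endothelium. Their summed level was 1614 and 3017 CPM in epithelium, and their median log2 ratio was 0.80 there, 0.44 in mesenchyme and 0.37 in endothelium. In the Aldh1a3 sub-cluster, where Etv4 had a log2 ratio of 0.16 and Spry4 of 1.17, the sum was 834 and 1886 CPM and the median 1.08. In inner enamel epithelium, where Etv4 had 0.86 and Spry4 0.08, it was 1123 and 1403 CPM with a median of 0.28. Enamel knot cells had 1588 and 2460.5 CPM and a median of 0.56, with ratios of 0.37 for Etv4 and 1.87 for Spry4. Ameloblasts had a median of 1.16, with 0.66 for Etv4 and 0.29 for Spry4. Stratum intermedium had a median of 1.01, with -0.02 for Etv4 and 0.60 for Spry4. In sub-cluster 9, of 84 and 41 cells, 0 of the 8 genes were higher and the median was -2.26. The part of the immediate early genes in the epithelial levels of Etv4 and Spry4 was not tested. With 1 library per genotype the genotype, the pups and the handling cannot be told apart.

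**Figure D4:**
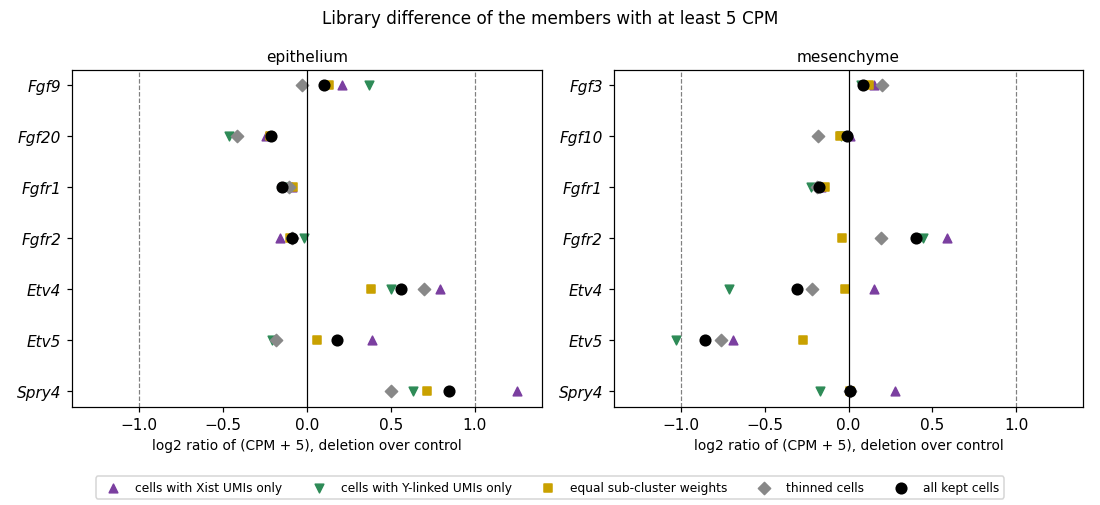
Log2 ratio of (CPM + 5), deletion over control (linear axis), for the genes with at least 5 CPM in epithelium (left) and mesenchyme (right), where black points are all kept cells, coloured symbols are alternatives, and dashed lines mark the 2-fold size. Etv4 and Spry4 lie above 0 in epithelium under every alternative drawn. Etv5 in mesenchyme moves from -0.85 to -0.27 with sub-cluster weights set equal between the libraries, labelled as equal sub-cluster weights.

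The other 53 pathway genes gave no call either. In epithelium 32 of them reached 5 CPM, 0 were called, and their median log2 ratio was 0.02. In mesenchyme 32 reached it, 0 were called, and the median was 0.15. By role, 7 of the 8 other targets and inhibitors tested in epithelium lay above 0, with a median of 0.20 beside -0.04 over all genes. The interval lay above 1 for 3 of the 8 and below 1 for 0, beside 8.61% and 17.7% of all genes. Among the 3 was the MAP kinase phosphatase Dusp6 at 54.5 and 83.1 CPM (ratio between 1.35 and 1.71). The transducers had a median of -0.09 there, with Ptpn11, a phosphatase of receptor signalling, most abundant at 146 and 124 CPM. The ligand carriers and heparan sulfate proteoglycans had a median of -0.02, led by glypican Gpc3 at 281 and 284 CPM.

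Further ligands and receptors were few and weak. Of 13 other secreted ligands 2 reached 5 CPM in epithelium, with Fgf1 highest at 22.1 and 19.8 CPM, and 2 in mesenchyme, with Fgf2 highest at 10.5 and 14.3 CPM. Of the 5 other receptors and co-receptors 2 were tested in each class, and Fgfr3 led (epithelium 12.98 and 13.7 CPM, mesenchyme 19.8 and 29.9 CPM). Of the intracellular FGF homologous factors only Fgf13 was tested, with epithelial levels of 9.62 and 11.2 CPM and mesenchymal levels of 21.9 and 28.4 CPM. In mesenchyme Gpc3 led the carriers at 940.1 and 1091 CPM, Ptpn11 the transducers at 106 and 120.2 CPM, and Spred1, an inhibitor of the cascade, the other targets at 97.3 and 107 CPM. Mesenchymal targets had a median of -0.02, with 3 of 8 above 0.

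For each gene the 3 others with the most similar pattern were taken by Pearson's r of log2(CPM + 5) over 16 named classes and subtypes, libraries pooled. These values describe points that share libraries and depth and carry no p. Unnamed clusters and sub-clusters were not among the 16 points, so the peaks of Fgf3, Fgf10, Fgfr1 and Etv4 described above were left out. The highest pooled level used was 10.6 CPM for Fgf3, 28.6 CPM for Fgf10 and 78.5 CPM for Etv4. Fgf3 was most like Gldn, Sall3 and Sytl4 (r from 0.91), and Fgf10 most like Clec11a, Ptgis and Thbs3 (highest r 0.92). Fgf4 was nearest to Mymx, Spo11 and Sowahb (highest r 1.00), which rests on a single enamel knot point. Fgf9 went with Igfbpl1, Agtr1b and Plcxd3 (0.93), and Fgf20 with Zfp157, Zbtb5 and Ap4m1 (0.91). Among receptors, Fgfr1 went with Kif7, Msi1 and Mme (0.94) and Fgfr2 with Bcl11b, Cxcl14 and Mpped2 (0.91). Among targets, Etv4 went with Stac, Irx3 and Eef1akmt2 (0.79), Etv5 with Sec61b, Copb2 and Tmem97 (0.85), and Spry4 with Fermt2, Tril and Adamts4 (0.96).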

How the data were processed

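Gene by cell tables of 2 libraries were used. The authors deposited whole-number UMI counts with no normalization. The submitters' processing notes name STARsolo and mm10, while its version, the annotation and the rule for keeping barcodes were not given in the sources used here. Of 13990 control and 16029 deletion barcodes, 13431 and 15487 had at least 500 genes and at most 20% mitochondrial UMIs. Scrublet, within scanpy 1.11.5, marked 176 (1.31%) and 243 (1.57%) doublets, which were removed, and the libraries shared 4 barcodes. All cells were clustered together on 2000 variable genes, 30 components and 15 neighbours at resolution 1, and epithelium and mesenchyme again at 0.6. Clusters were named from marker lists by a scoring rule set after the data were seen, and stayed unnamed where leading genes went against the name. They also did where the best score led the next by less than 0.1 and leading genes did not decide. The Plac8 sub-cluster, for example, scored 0.416 for odontoblast and 0.403 for osteoblast.

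UMIs were summed per class and library as CPM, with exact Poisson intervals for levels, exact Clopper-Pearson intervals for shares and conditional binomial intervals for ratios (scipy 1.17.1). A level of 0 allows up to 3 counts. Thinning left out 946 control and 1644 deletion cells under 1900 UMIs. TMM factors came from edgeR 4.0.16, and the calling rule was tested on simulated data. The genes named by rule are the 10 genes, the most abundant pathway gene of each role, and for each of the 10 the 3 most similar genes with at least 20 CPM in a class. Cluster leaders, Micu3 and the immediate early list were added after values were seen. So were the ETS motif, searched when the other 3 had no match, and the marking of CG dinucleotides. The 10 genes, the lists and the rules were chosen with earlier results of these data known.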

Additional observations from a re-analysis of the deposited data

How the results depend on the processing

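No paired analysis was possible because each genotype has 1 library. The count of the 10 genes called between whole classes was 0 in epithelium, mesenchyme and endothelium, and 12 alternatives were tried, with 2 more chosen after seeing the data. In epithelium the count was 1 (Spry4) with a pseudocount of 1 CPM and 1 (Spry4) in cells with Xist UMIs only. In mesenchyme it was 1 (Etv5) in cells with Y-linked UMIs only, and in endothelium 1 (Fgf20) in thinned cells. It stayed 0 in the other 11, 12 and 11 alternatives that apply there, and that of the 53 pathway genes stayed 0 in all 13 in epithelium and in mesenchyme. The genes higher in epithelium than in mesenchyme in both libraries were 5 (Fgf4, Fgf9, Fgf20, Fgfr1 and Etv4), and 4 in cells with Y-linked UMIs only. Over all genes, the 21 calls in epithelium became 53 with the smaller pseudocount, 9 with a minimum of 50 CPM, 69 in Y-only and 85 in Xist-only cells. The 54 calls in mesenchyme became 124, 31, 177 and 87 in the same order. They became 2 with the same sub-cluster weights in both libraries and 33 with the Sgms2 cluster added. The 19 calls in endothelium became 120, 9, 288 and 141 in the same order, 46 with stricter cell filters and 82 in thinned cells. The sign of the library difference was kept in all 13 alternatives for Fgf20, Fgfr1, Fgfr2, Etv4 and Spry4 in epithelium and for Fgfr1 and Etv5 in mesenchyme. It was kept in 12 for Fgf9 in epithelium and for Fgf3, Fgfr2 and Etv4 in mesenchyme, in 11 for Etv5 in epithelium, and in 10 and 9 for Spry4 and Fgf10 in mesenchyme. The cause of these moves was not tested. The 20 and 12 epithelial Fgf4 UMIs allow no comparison of libraries finer than the interval given.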

Other observations

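Detection of pairs of these genes in the same cells was counted after thinning to 1900 UMIs and set beside the product of the separate shares. In epithelium Etv4 and Etv5 were found together in 25 control and 27 deletion cells, where the product gives 8.27 and 9.37. In mesenchyme Fgfr2 and Etv5 met in 150 control and 164 deletion cells, where the product gives 271 and 250.04, and Fgfr2 and Etv4 in 47 and 75 cells against 84.5 and 108. Fgf3 met Fgf10 in 7 and 16 mesenchymal cells against 4.73 and 6.99, and Etv4 in 12 and 16 against 4.88 and 6.53. With Spry4 it was found in 25 and 21 mesenchymal cells against 13.4 and 21.9, above the product in the control only. Fgfr1 and Fgfr2 met in 540 and 389 epithelial cells against 537 and 384, and Fgfr2 and Etv4 in 41 and 47 against 44.7 and 53.7. Fgf20 met Fgf9 in 7 and 4 epithelial cells against 4.11 and 1.92, and Fgf4 in 1 and 3 against 0.11 and 0.044. These pairs were chosen with the levels known, and not all pairs counted are given here. Cells of a library are not replicates, and the counts are a description.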
